A study of Mus musculus with 6 samples.

Results

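The suppressor of cytokine signalling (SOCS) family was examined in activated B cells that had or lacked the aryl hydrocarbon receptor (AhR), a ligand-activated transcription factor. Its 8 members, Socs1 to Socs7 and Cish, were taken by gene symbol from a table of 23420 genes, a rule that uses no measured value. Splenic B cells of C57Bl/6J background were purified by negative selection from 3 Ahr+/+ and 3 Ahr-/- mice and cultured for 8 h with anti-IgM at 10 µg/ml, which engages the B-cell receptor (BCR), and IL-4 at 20 ng/ml. Both genotypes received the AhR ligand FICZ, at 250 nM, over the final 4 h, so no unstimulated or vehicle-treated cells belong to the comparison. The Ahr deletion was carried in the germ line, so every cell of the Ahr-/- mice lacked the receptor and not B cells alone. The study's methods describe its mice in general as adult and matched for age and sex, and the age and sex of each of these mice were not given in the sources used here. Stranded mRNA libraries were sequenced, 1 per mouse, and the question asked of them was which genes depend on AhR when B cells are activated.

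SOCS proteins are the classical negative feedback of the JAK-STAT pathway. A cytokine such as IL-4 brings its receptor chains together, Janus kinases phosphorylate the receptor and the STAT factors that dock on it, and STATs enter the nucleus and switch on target genes, among them those of the SOCS family. Each SOCS protein has an SH2 domain, which binds phosphotyrosine, and a SOCS box, which recruits elongins and a cullin to form a ubiquitin ligase. Cish and Socs2 occupy receptor tyrosines used by STAT5, Socs1 and Socs3 also block the kinases directly, and Socs4 to Socs7 are larger and less studied proteins. Socs2 has been described in other settings as a gene that AhR switches on.

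All 8 members passed the minimum of 10 counts over the 6 libraries, and 3 of them differed between the genotypes (edgeR quasi-likelihood test, adjusted p under 0.05 over all 13682 tested genes). Socs2 was 2.03-fold higher in Ahr-/- B cells, Socs5 was lower at 0.466 of its Ahr+/+ level, and Cish was lower at 0.791 of its Ahr+/+ level. Socs1, Socs3, Socs4, Socs6 and Socs7 did not pass the test. Over all tested genes 17.9% were called, with 9.79% higher and 8.13% lower in Ahr-/- cells, and 33.5% had libraries that did not overlap between the genotypes. The balance of directions depended on scaling, with 1340 higher and 1113 lower here and 1621 higher and 919 lower when library size alone was used. The family gave 1 member higher, 2 lower and 5 without overlap. The median log2 fold change of the members was -0.09 beside 0.00 for all tested genes, and their median absolute log2 fold change was 0.116 beside 0.115. In bulk samples, a lower count from fewer cells of a type cannot be told apart from less RNA per cell, and this holds for every value given here.

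**Figure D1:**
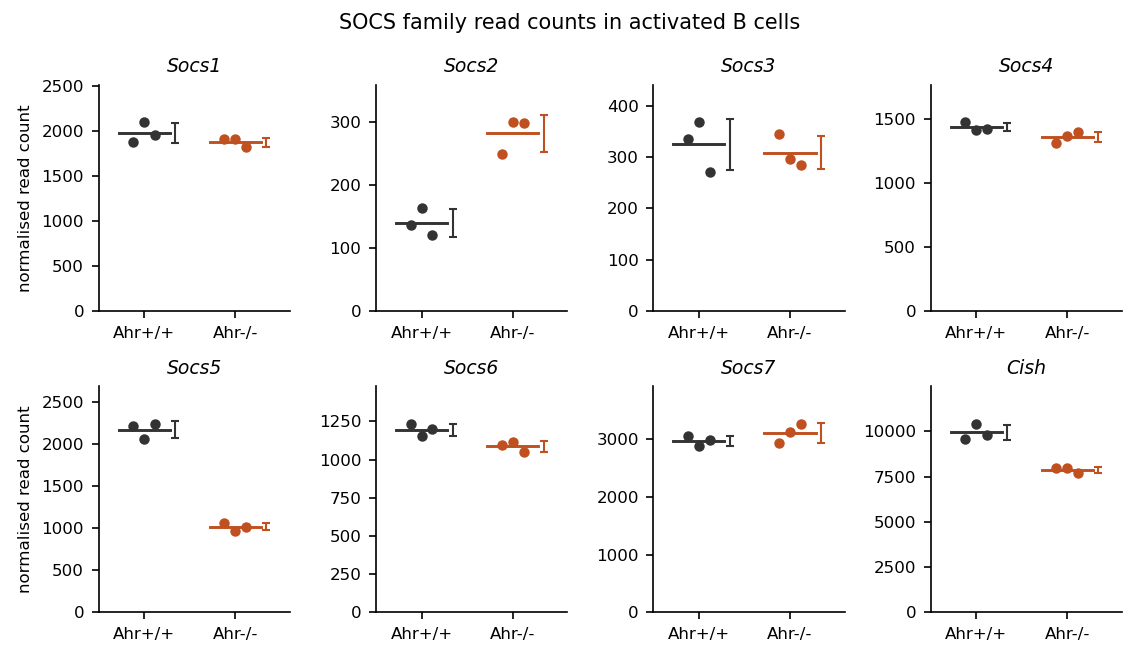
Normalised read counts of the 8 SOCS family members, 1 panel per gene with its own linear axis from 0. Points are single mice, horizontal lines are means, bars beside them are SD (3 mice per genotype), and the genotypes separate widely for Socs2, Socs5 and Cish while they interleave for Socs1, Socs3 and Socs7.

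Total counts ran from 22095096 to 53648787 per library, both extremes being Ahr-/- libraries, and values below are counts scaled to a common library size (normalised counts). Ahr itself fell to 0.697 of its Ahr+/+ level (log2 fold change -0.52, SE 0.05, adjusted p = 7.1e-06, edgeR quasi-likelihood test). Reads still came from the locus, and which part of it was deleted was not given in the sources used here. The labels were therefore also read against known AhR targets. Tiparp, an ADP-ribosyltransferase, had 24959, 22991 and 24095 normalised counts in Ahr+/+ mice and 1285, 1201 and 1167 in Ahr-/- mice, so every library matched its label. All 8 B-cell markers were detected, with summed levels of 86422 to 90640 in Ahr+/+ and 99398 to 104087 in Ahr-/- libraries. Of these 8, 4 were called higher and 1 lower in Ahr-/- cells, beside 9.79% and 8.13% of all tested genes.

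To compare levels between genes, counts were scaled to library size (CPM) and divided by the length of all annotated exons in kilobases. On this scale Cish stood first in both genotypes, with 40.3 ± 1.73 CPM per kilobase (SD, n = 3) in Ahr+/+ and 31.9 ± 0.600 in Ahr-/- cells. It made up 45.3% of the summed level of the family in Ahr+/+ and 42.5% in Ahr-/- cells. Socs1 followed with 17.7 ± 0.979 and 16.8 ± 0.444 CPM per kilobase. Socs7 came next, at 10.6 ± 0.320 and 11.1 ± 0.609. These members kept their order in both genotypes, and their libraries did not overlap with those of the next member in either. Socs5 and Socs4 changed places on this scale. In Ahr+/+ cells Socs5 stood above Socs4, at 8.80 ± 0.406 against 5.44 ± 0.121 CPM per kilobase, whereas in Ahr-/- cells it stood below, at 4.12 ± 0.173 against 5.14 ± 0.157. Socs3 and Socs6 lay between 2.40 and 3.31 in all libraries, and their ranges overlapped in Ahr+/+ cells but not in Ahr-/- cells. Socs2 was the lowest member, with 0.382 ± 0.061 CPM per kilobase in Ahr+/+ and 0.772 ± 0.080 in Ahr-/- cells. Its share of the family went from 0.430% ± 0.059 to 1.03% ± 0.109, and that of Socs5 from 9.91% ± 0.683 to 5.48% ± 0.248. Part of this order rests on the length used. The shares of the family rest on it too, and they were formed with all exons only. With the longest coding transcript, an alternative chosen after the data were seen, Socs5 stayed above Socs4 in Ahr-/- cells, at 5.68 against 5.14 CPM per kilobase, so the exchange of places was not found. Cish was then at 90.7 in Ahr+/+ and 71.8 in Ahr-/- cells and still first. Socs2 reached 1.64 and 3.31 CPM per kilobase and its mean stood above that of Socs3 in Ahr-/- cells, where their libraries overlapped, and Socs5, at 12.1 in Ahr+/+ cells, stood above Socs7 there.

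**Figure D2:**
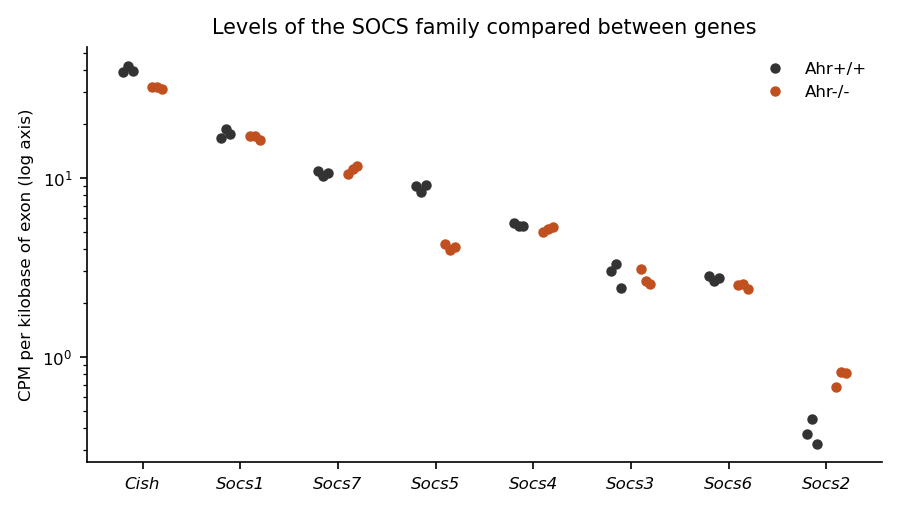
Level of each SOCS family member in CPM per kilobase of exon, on a log axis, with members ordered by their Ahr+/+ mean and 1 point per mouse. Cish lies on top near 40.3 and 31.9 and Socs2 at the bottom near 0.382 and 0.772, and Socs5 drops from above Socs4 to below it in Ahr-/- cells, which did not hold when levels were divided by the longest coding transcript.

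Cish, the founding member, binds the cytoplasmic tails of STAT5-activating receptors such as those for IL-2 and erythropoietin. It lies on chromosome 9 (chr9:107296026-107302784, plus strand, GRCm38) and has 2 annotated genes, Gm17040 and Gm17041, on the opposite strand within it. The strand setting of the counting was not given in the sources used here, so how their reads were assigned is not known. Normalised counts of Cish were 9587, 10412 and 9806 in the Ahr+/+ mice and 7945, 7950 and 7691 in the Ahr-/- mice. All Ahr-/- values were below all Ahr+/+ values, and the gap between the groups was wider than the spread inside either. The means were 9935 ± 428 and 7862 ± 148 (SD, n = 3), which gave a log2 fold change of -0.34 (SE 0.04, 95% interval -0.42 to -0.25, adjusted p = 6.5e-05, edgeR quasi-likelihood test). This rested on 4629 to 11183 reads per library. Of the 4 nearest tested protein-coding genes, 2 on each side, 2 were also lower in Ahr-/- cells, beside 8.13% of all tested genes, and over the neighbours of the whole family 6 of 32 were called, beside 17.9%. These were Hemk1, at 24.3 kb, with a log2 fold change of -0.38 (adjusted p = 0.00058, edgeR) and 6430571L13Rik, at 37.8 kb, with -1.03 (adjusted p = 1.3e-05). Mapkapk3, the nearest at 6.15 kb, had -0.08 (adjusted p = 0.17).

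Promoter sequences were searched for letters that STAT factors and AhR are known to bind, since members of this family are induced by STATs and Socs2 by AhR. A window from 250 bases before to 50 bases after the transcription start was held for 4 of the 8 members, Cish, Socs1, Socs3 and Socs4, in the RefSeq promoter table (GRCm38.p6). Both strands were searched for TTC and GAA separated by any 3 bases (TTCNNNGAA) or by any 4 bases, the spaced palindromes of STAT binding, and for GCGTG, the core of the AhR response element. Matches were counted for each motif separately, and no printed match overlaps another. Of all 32851 promoters of the same length, 8.30% held TTCNNNGAA, 6.95% held the form with 4 bases between and 32.4% held GCGTG. The Cish window held TTCNNNGAA at 2 places separated by 2 bases, of which the first began at the RefSeq start, and the Socs3 window held it once, 154 bases before the RefSeq start. These RefSeq starts lie 633 bases (Cish) and 681 bases (Socs3) inside the GENCODE genes whose positions are given here, so both matches fall within those longer gene models. The RefSeq start of Socs4 lies 11 bases before its GENCODE gene. The Socs4 window held GCGTG once on the reverse strand, 192 bases before the start, which reads CACGC on the strand shown. The Socs1 window held none of these motifs, and the form with 4 bases between was in none of the 4 windows. The 30 bases around the matches are printed 5′ to 3′ on the strand of each gene, with the match in capitals, at chr9:107296654-107296683 (plus strand) for Cish, chr11:117969501-117969530 (minus strand) for Socs3 and chr14:47276716-47276745 (plus strand) for Socs4.
Cish: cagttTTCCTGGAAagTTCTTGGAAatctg
Socs3: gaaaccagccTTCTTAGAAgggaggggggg
Socs4: aggtatgtcacaCACGCccgggagatgaca

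These matches are descriptions of letters and not of bound sites. For scale, 8 of 10 genes of the AhR battery, the drug-metabolising and feedback genes that AhR is best known to induce, had a window, and 4 of the 8 held GCGTG, namely Ahrr with 3 matches and Cyp1a1, Cyp1b1 and Tiparp with 1 each. Promoter windows of Socs2, Socs5, Socs6 and Socs7 were not used here.

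Socs2, which restrains growth hormone and STAT5 signalling, lies on chromosome 10 (chr10:95385362-95417180, minus strand, GRCm38). Its normalised counts were 136, 164 and 120 in the Ahr+/+ mice and 249, 300 and 299 in the Ahr-/- mice. The lowest Ahr-/- library was above the highest Ahr+/+ library, so the member described as induced by AhR was the only one called higher in cells without it. The means were 140 ± 22.2 and 283 ± 29.3 (SD, n = 3), a log2 fold change of 1.02 (SE 0.13, 95% interval 0.75 to 1.30, adjusted p = 9.2e-05, edgeR quasi-likelihood test). A two-sided exact permutation test of the 6 values gave p = 0.1, the smallest that 3 against 3 mice allow. Depth limited this member most, with 107 to 163 reads in the Ahr+/+ libraries and 145 to 422 in the Ahr-/- libraries. Its 4 nearest tested protein-coding genes had adjusted p between 0.1 and 0.96 (edgeR). The nearest of them, Cradd, at 61.2 kb, had a log2 fold change of 0.22 (adjusted p = 0.34, edgeR), and Plxnc1, the farthest, had 0.26 (adjusted p = 0.1).

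Markers of plasmacytoid dendritic cells moved with the genotype in the same direction as Socs2. All 7 markers of plasmacytoid dendritic cells were called higher in Ahr-/- cells, with summed levels of 1590 to 1742 normalised counts in Ahr+/+ and 2506 to 2631 in Ahr-/- libraries, and Siglech, the defining one, went from 56.8 ± 4.19 to 269.7 ± 32.3 normalised counts (SD, n = 3). Most of the plasmacytoid sums came from 1 gene, Pacsin1, with means of 1248 in Ahr+/+ and 1685 in Ahr-/- libraries. The counts for the other cell types stand beside 9.79% higher and 8.13% lower over all tested genes. Of 8 markers of conventional dendritic cells, 4 were called higher and 1 lower, and the summed levels overlapped, at 819.8 to 936.6 and 882.2 to 1073. Of 7 markers of NK cells, 2 were called higher, with sums of 320.5 to 465.8 and 411.2 to 651.9. Of 8 markers of monocytes and macrophages, 1 was called higher, with sums of 545.9 to 815.0 and 574.4 to 1049, and the 7 tested neutrophil markers had adjusted p of 0.056 or more (edgeR), with sums of 113.6 to 348.1 and 130.4 to 501.2. Of 8 T-cell markers, Cd3e and Cd28 were called lower, with sums of 302.1 to 436.7 and 286.6 to 299.1. Of 5 plasma cell markers, 2 were called higher and 1 lower, with sums of 24385 to 26152 and 29330 to 31676. For red cells, 6 markers were in the table, 4 haemoglobin genes among them were at 0 in every library, and the sums were 2.91 to 17.1 and 4.56 to 13.7. The part of these cells in the values of Socs2 and the other members was not tested.

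To ask whether the difference of Socs2 set it apart from its relatives, the log2 ratio of Socs2 to each other member was formed within each library. Against Socs1 the ratio went from -3.83 ± 0.18 to -2.73 ± 0.18 (SD, n = 3), a difference of 1.09. Against Socs5 it went from -3.96 ± 0.29 to -1.85 ± 0.21, a difference of 2.12, and against Cish from -6.16 ± 0.18 to -4.80 ± 0.17, a difference of 1.36. Differences against the other members lay between 0.95 for Socs7 and 1.16 for Socs6. In all 7 ratios no Ahr-/- library overlapped with an Ahr+/+ library, and each two-sided exact permutation test gave p = 0.1, the smallest the design allows, which stayed at 0.1 after Benjamini-Hochberg adjustment over the 7 ratios. The design could therefore not reach 0.05 for these ratios. All 7 share Socs2, whose own counts did not overlap between the genotypes, so they are not independent of each other. Against members that changed little, the ratios repeat the difference of Socs2 itself. Genes whose profile over the 6 libraries was most like that of Socs2 were sought among 11832 genes with a mean of at least 10 normalised counts, by the root mean square difference of log2 profiles centred on their own mean. The first 5 were Tmem159 (difference 0.104), Iqsec2 (0.115), Armcx6 (0.129), Edaradd (0.137) and Rcsd1 (0.138). Of these, Rcsd1 was the most abundant, with means of 1117 normalised counts in Ahr+/+ and 2004 in Ahr-/- cells, and Tmem159 the least, with 14.7 and 31.2.

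Socs1, an inhibitor of Janus kinases that limits interferon-γ and IL-4 signalling, lies on chromosome 16 (chr16:10782240-10785536, minus strand, GRCm38). Normalised counts were 1877, 2093 and 1954 in the Ahr+/+ mice and 1902, 1902 and 1816 in the Ahr-/- mice. The groups overlapped, and the log2 fold change of -0.08 had a 95% interval of -0.18 to 0.03 (adjusted p = 0.31, edgeR). Socs3, which blocks Janus kinases bound to receptors of the IL-6 family, lies on chromosome 11 (chr11:117966079-117970047, minus strand). Its normalised counts were 336, 368 and 271 in the Ahr+/+ mice and 345, 296 and 285 in the Ahr-/- mice. The groups overlapped here too, and the log2 fold change of -0.09 had a 95% interval of -0.35 to 0.16 (adjusted p = 0.65, edgeR). The direction of this value depended on 1 mouse, since without Ahr+/+ replicate 2 it was 0.0050 (adjusted p = 0.98, edgeR). The interval of Socs3 was the wider, and neither interval reached the size of the differences of Socs2 or Socs5.

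Socs5, a member with a long N-terminal region that has been described to bind the IL-4 receptor α chain and to limit signalling by the EGF receptor, lies on chromosome 17 (chr17:87107679-87137839, plus strand, GRCm38). Its normalised counts were 2215, 2055 and 2239 in the Ahr+/+ mice and 1056, 971 and 1018 in the Ahr-/- mice. Each Ahr-/- mouse was far below each Ahr+/+ mouse, and the values within a genotype lay close together. The means were 2170 ± 100 and 1015 ± 42.3 (SD, n = 3), a log2 fold change of -1.10 (SE 0.05, 95% interval -1.21 to -0.99, adjusted p = 1.0e-08, edgeR quasi-likelihood test). The exact two-sided permutation p was 0.1, the smallest possible. The same test also gave 0.1 for Socs4 and Socs6, which were not called, so it does not set Socs5 apart from them. This member carried 615 to 2280 reads per library and had the smallest adjusted p of the family. Its 4 nearest tested protein-coding genes had adjusted p between 0.11 and 0.85 (edgeR), and Cript, the nearest at 71.9 kb, had a log2 fold change of 0.02 (adjusted p = 0.85, edgeR). By the same measure of likeness, used here after the values were seen, the genes closest to Socs5 were Snapc1 (difference 0.036), Scd1 (0.050), Exoc3 (0.067), Rcan1 (0.067) and Rbpj (0.070). Scd1, a fatty acid desaturase, went from a mean of 49173 to 23514 normalised counts, and Rbpj, the DNA-binding factor of Notch signalling, from 13376 to 6159. The genes closest to Cish were Efnb1 (0.027), Rnf19b (0.031), Tnfaip8 (0.031), Nol10 (0.032) and Pdk3 (0.033).

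Socs4, the nearest relative of Socs5, lies on chromosome 14 (chr14:47276931-47296102, plus strand, GRCm38). Normalised counts were 1474, 1417 and 1420 in the Ahr+/+ mice and 1315, 1367 and 1397 in the Ahr-/- mice. The groups did not overlap, but the gap between them was smaller than the spread within either, and the log2 fold change of -0.08 (95% interval -0.17 to 0.02) did not pass the test (adjusted p = 0.28, edgeR). Among its 4 nearest tested protein-coding genes, Wdhd1 and Mapk1ip1l were called lower, beside 8.13% of all tested genes. Wdhd1, which lies 74 bases away, had a log2 fold change of -0.20 (adjusted p = 0.023, edgeR), and Mapk1ip1l had -0.16 (adjusted p = 0.0062). Lgals3 at 0.20 (adjusted p = 0.42, edgeR) and Gch1 at 0.07 (adjusted p = 0.61) were not called. Socs7, which binds insulin receptor substrates and adaptor proteins, lies on chromosome 11 (chr11:97362551-97398542, plus strand). Its normalised counts were 3054, 2876 and 2981 in the Ahr+/+ mice and 2930, 3130 and 3268 in the Ahr-/- mice, with overlap, and the log2 fold change of 0.07 had a 95% interval of -0.03 to 0.17 (adjusted p = 0.35, edgeR).

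Socs6 has been described to bind the insulin receptor pathway and the KIT receptor. Normalised counts were 1234, 1155 and 1198 in the Ahr+/+ mice and 1097, 1115 and 1048 in the Ahr-/- mice. Every Ahr-/- value was below every Ahr+/+ value, and the log2 fold change was -0.14 (SE 0.05, 95% interval -0.25 to -0.03). It missed the threshold after adjustment over all genes (adjusted p = 0.074, edgeR). Annotated processed pseudogenes overlap this gene on both strands, and how reads shared with them were counted is not known.

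**Figure D3:**
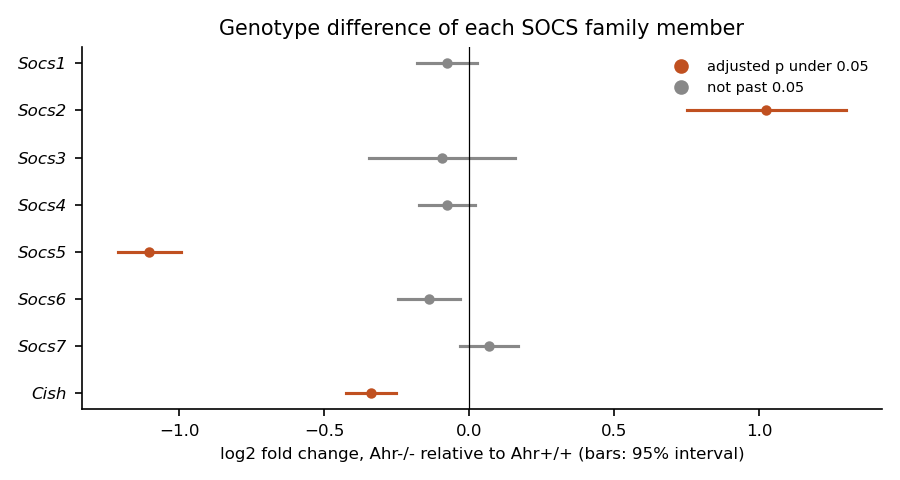
Log2 fold change of each SOCS family member in Ahr-/- relative to Ahr+/+ B cells, with 95% intervals from the edgeR fit across all genes. Coloured members (Socs2 at 1.02, Socs5 at -1.10, Cish at -0.34) passed an adjusted p of 0.05, and the other 5 lie between -0.14 and 0.07.

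The rest of the pathway was read from lists of known function. Among receptor chains, 33 of 35 were tested, 7 were called higher and 5 lower, where 9.79% and 8.13% of all tested genes were, and the median log2 fold change was 0.01. Il4ra and Il2rg, the chains that form the IL-4 receptor of lymphocytes, did not pass the test, with log2 fold changes of 0.11 (adjusted p = 0.25, edgeR) and -0.01 (adjusted p = 0.89). The called receptors that differed most were those of other ligands. Il5ra, the IL-5 receptor chain, had 1099, 1251 and 1336 normalised counts in Ahr+/+ and 321, 320 and 336 in Ahr-/- mice (log2 fold change -1.91, adjusted p = 3.5e-09, edgeR). Lifr, the receptor for leukaemia inhibitory factor, was low but higher without AhR, at 67.0, 60.4 and 73.0 against 178.5, 164.2 and 196.0 (1.43, adjusted p = 1.1e-05). Igf1r, the receptor for insulin-like growth factor 1, had 234, 207 and 220 against 433, 496 and 406 (1.02, adjusted p = 9.7e-06), a difference of the same size as that of Socs2. Il21r (-0.58, adjusted p = 5.8e-06), Il10ra (-0.57, adjusted p = 0.00044) and Il6ra (0.36, adjusted p = 0.00069) completed the 6 with the largest changes.

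Both called Janus kinases were lower in Ahr-/- cells, out of 4 tested, beside 8.13% called lower over all tested genes. Jak2, the kinase of the IL-5, erythropoietin and growth hormone receptors, had 12615, 10986 and 11153 normalised counts in Ahr+/+ and 4116, 4267 and 4229 in Ahr-/- mice (log2 fold change -1.46, SE 0.05, adjusted p = 1.2e-09, edgeR). Jak1, which pairs with the IL-4 receptor, had 14788, 14354 and 14513 against 10936, 11062 and 11039 (-0.40, adjusted p = 2.6e-06). Jak3 and Tyk2 did not pass the test (adjusted p = 0.81 and 0.25, edgeR). Of 7 STAT factors, 1 was called higher and 2 lower, beside 17.9% called over all tested genes. Stat5a, which drives Cish and Socs2 in other cells, had 13273, 14459 and 13698 against 16028, 17076 and 18350 (0.31, adjusted p = 0.00072). Stat3 had 13750, 15523 and 15032 against 10881, 10532 and 10593 (-0.47, adjusted p = 1.0e-05), and Stat6, the factor activated by IL-4, was lower by a small step (-0.14, adjusted p = 0.015) and not called without Ahr-/- replicate 2 (adjusted p = 0.08). Stat5b did not pass the test (0.13, adjusted p = 0.076, edgeR). In RNA level, Cish and Stat5a therefore differed in opposite directions, and Socs2 and Stat5a in the same direction. The activity of STAT5 was not measured.

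Among 11 tested inhibitors of the pathway outside the family, Ptpn6 was called, and 17.9% of all tested genes were. It encodes the phosphatase SHP-1, a brake on receptor signalling in lymphocytes, and had 37475, 38992 and 37047 normalised counts in Ahr+/+ and 16667, 17412 and 19015 in Ahr-/- mice (log2 fold change -1.10, SE 0.05, adjusted p = 5.4e-09, edgeR), the same log2 fold change as Socs5 to 2 decimals. The ubiquitin ligase that SOCS proteins recruit had 8 subunits or activators tested, of which Arih2 was called lower (-0.24, adjusted p = 0.0032). Nedd8 was called higher (0.12, adjusted p = 0.043), a call lost in 5 of the 6 fits that left out a mouse (adjusted p up to 0.17, edgeR) and kept without Ahr-/- replicate 3. Its elongins, cullins and RING subunits had adjusted p of 0.19 or more (edgeR). Of 27 other genes for proteins with a SOCS box, 16 were tested, 1 was called higher and 3 lower. Asb2 had 326, 441 and 345 normalised counts in Ahr+/+ and 6.87, 12.1 and 6.38 in Ahr-/- mice (-5.34, adjusted p = 4.1e-09). Spsb1 (-0.70, adjusted p = 0.00022) and Lrrc41 (-0.16, adjusted p = 0.013) were lower, the latter not without Ahr+/+ replicate 3 (adjusted p = 0.054). Wsb2 (0.14, adjusted p = 0.030) was called higher, a call lost with DESeq2, with the replicate block and in 5 of the 6 fits that left out a mouse (adjusted p up to 0.13), and kept without Ahr+/+ replicate 2.

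**Figure D4:**
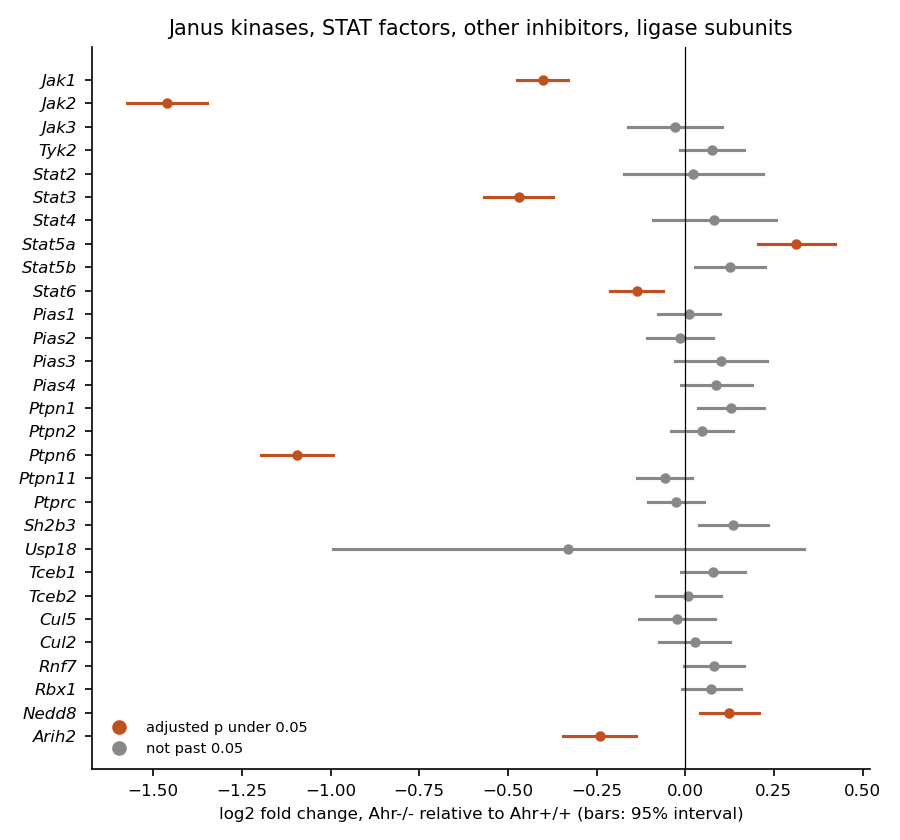
Log2 fold change in Ahr-/- relative to Ahr+/+ B cells with 95% intervals for Janus kinases, STAT factors, inhibitors outside the SOCS family and subunits of the SOCS box ligase, listed in that order from the top. Jak2 at -1.46 and Ptpn6 at -1.10 lie far to the left, most others lie close to 0, and coloured genes passed an adjusted p of 0.05 in the edgeR fit.

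Genes that STAT factors switch on, as the SOCS genes are, were counted for comparison. Of 15 tested, 4 were called higher and 1 lower, beside 9.79% and 8.13% of all tested genes, and their median log2 fold change was 0.20. The survival gene Bcl2l1 had 2654, 2902 and 2817 normalised counts in Ahr+/+ and 4073, 4460 and 4494 in Ahr-/- mice (log2 fold change 0.64, adjusted p = 1.4e-06, edgeR). The kinase gene Pim1 had 4437, 4488 and 4271 against 6268, 6264 and 6421 (0.52, adjusted p = 8.2e-07), whereas its relative Pim3 was lower, with 3667, 3576 and 3572 against 2626, 2623 and 2635 (-0.46, adjusted p = 1.7e-06). Batf (0.33, adjusted p = 0.0033) and Fcer2a, which encodes the IgE receptor CD23 (0.31, adjusted p = 0.0076; 0.062 with a robust fit), were also higher.

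The AhR battery gave the scale of known targets in the same cells. Of 10 genes 6 were tested, and 5 were called, all of them lower in Ahr-/- cells, beside 8.13% of all tested genes. Cyp1a1 had 4973, 5437 and 5327 normalised counts in Ahr+/+ and 6.87, 2.84 and 6.38 in Ahr-/- mice. Cyp1b1 had 226, 222 and 239 and no read in any Ahr-/- library, and Ahrr had 302, 321 and 365 against 3.43, 2.13 and 0. Nqo1, a quinone reductase, had a log2 fold change of -4.53 (adjusted p = 7.6e-12, edgeR) and Tiparp one of -4.31 (adjusted p = 1.6e-14). No SOCS family member differed by as much, and Socs2 differed in the opposite direction from these 5 genes.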

How the data were processed

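Read counts per gene were made by the authors, without normalization, from stranded mRNA libraries sequenced on an Illumina instrument. The submitters' processing notes name TopHat2, HTSeq, DESeq and mm10, and versions, annotation and strand setting were not given in the sources used here. The deposited normalized counts and the authors' own comparison table (fold changes and p-values) were not used. A gene entered the test when its counts summed to 10 or more (13682 of 23420), with the edgeR 4.0.16 quasi-likelihood test in R 4.3.3 (TMM scaling, prior count 0.125, Benjamini-Hochberg adjustment over all tested genes, two-sided), and the code was tested on simulated data. SE is the absolute log2 fold change divided by the root of F. Normalised counts are counts divided by the TMM effective size relative to its mean. CPM per kilobase uses the TMM effective size and GENCODE M21 exons (GRCm38). Profiles were compared as log2 of normalised counts plus 2.

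Genes named were all members, Ahr, the called genes of the Janus kinase, STAT, inhibitor, ligase and AhR battery lists, up to 6 called genes with the largest changes of the longer lists, and the 5 genes most like Socs2. Il4ra, Il2rg, Jak3, Tyk2, Stat5b, the marker genes Siglech, Pacsin1, Cd3e and Cd28, the neighbouring genes, and the genes most like Socs5 and Cish were added after their values were seen. An item of the lists is not reported or plotted here. The members and lists were chosen with earlier results of these data known. Replicates of a genotype are separate mice (3 per genotype). Counting differences between libraries, as chi-square per degree of freedom, were 3.8 to 8.8 within and 24.0 to 42.7 between genotypes, so no 2 libraries were the same within counting error. A floor of 3 counts corresponds to 0.056 to 0.136 CPM and covers counting error only. Alternatives were DESeq2 1.42.0, other scalings and filters, a replicate block, a stricter threshold and leaving out each mouse.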

Additional observations from a re-analysis of the deposited data

How the results depend on the processing

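Under all 15 alternatives Socs2, Socs5 and Cish were called and no other member was. The log2 fold change of Socs2 lay between 0.93 and 1.15 (highest adjusted p = 9.0e-04, edgeR or DESeq2), that of Socs5 between -1.14 and -1.07 (3.6e-07) and that of Cish between -0.36 and -0.30 (0.00065). Socs3 ran from -0.21 to 0.00 when 1 mouse was left out, and its sign turned without Ahr+/+ replicate 2 (0.0050). Genes called numbered 1473 at an adjusted p of 0.01, 2198 with the DESeq2 Wald test and 1664 to 2601 when 1 mouse was left out. Called inhibitors outside the family numbered 3 with DESeq2, 2 with the replicate block and 1 to 3 when 1 mouse was left out, called STAT factors 2 to 4, called STAT-responsive genes 5 to 7, called ligase subunits 1 to 2, and called other SOCS box genes 2 to 4. The causes were not tested. The labels tie replicate numbers to no shared litter or day, and deviations of same-numbered mice correlated at -0.11, 0.19 and -0.13, with 2 of 6 libraries closest to their own number. The replicate block gave 2304 called genes and the same 3 members. With 3 mice per genotype a permutation test cannot go below 0.1, and Socs2, at 107 to 422 reads per library, is the member that depth limits most.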
